A study of Mus musculus with 13 samples.

Results

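The 7 cortical libraries labelled APPPS1;Apoe-/- were divided by their measured level of App, the gene of amyloid precursor protein: the sides were chosen by App RPKM alone, into 2 low-App libraries, under 150 RPKM, and 5 other-App libraries, at 150 RPKM or more. RPKM counts reads relative to gene length and to the mapped reads of the library. These 7 are among 13 libraries from the cortex of C57BL/6 mice aged 6 months, the other 6 being APPPS1 mice with intact Apoe. Both groups carry the APPPS1 transgenes by label, so that neither is free of amyloid by design, and the APPPS1;Apoe-/- mice lack in addition apolipoprotein E, the main lipid carrier of the brain. The series' design counts the libraries as separate mice. Only n = 2 libraries lie on the low side, and the sides come from a measured level and not from a label, so that every comparison of the sides is a description without a test.

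APPPS1 mice carry a mutant human form of amyloid precursor protein, expressed under a neuronal promoter fragment of mouse Thy1, and deposit amyloid plaques in the cortex. Reads from such transgenes can align to mouse App and to mouse Thy1, whose sequence flanks the insert. Microglia around plaques shift from a homeostatic state to one marked by Trem2, its signalling partner Tyrobp, Cst7, Clec7a and lysosomal genes, and this shift is known to depend in part on Trem2 and Apoe. Astrocytes near plaques raise Gfap, their intermediate filament.

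App measured 106 RPKM in replicate 2 and 116 RPKM in replicate 5. In replicates 1, 3, 4, 6 and 7 it measured 193, 197, 196, 182 and 184 RPKM. The library just under the threshold therefore stood at 116 RPKM and the one just above it at 182 RPKM, with none between. The 6 APPPS1 libraries spanned 176 to 217 RPKM, the range in which the 5 other-App libraries lie. Thy1, a neuronal surface glycoprotein, divided the libraries in the same way. It stood at 52.2 and 56.9 RPKM in the low-App libraries, against 184, 204, 245, 172 and 191 RPKM in the other-App libraries, a 3.65-fold gap, and at 194 to 243 RPKM in APPPS1. Apoe was low in all 7, at 4.01 to 6.35 RPKM, against 463 to 670 RPKM in APPPS1. In 2 libraries, then, App and Thy1 were lower than in the other 11 libraries whose labels name the same transgenes. Whether those 2 mice carried them was not tested.

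**Figure D1:**
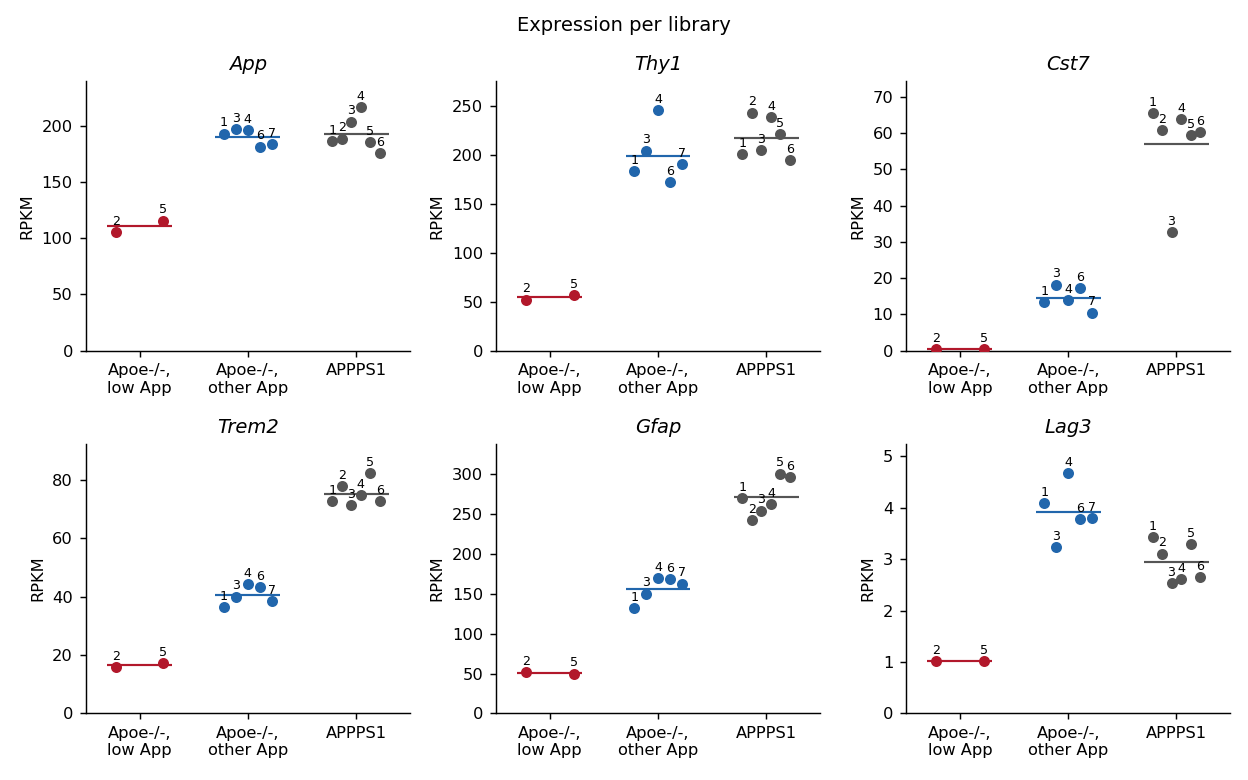
RPKM of 6 genes in each library, with low-App APPPS1;Apoe-/- (2 libraries), other-App APPPS1;Apoe-/- (5) and APPPS1 (6) side by side. Points are libraries numbered by replicate and bars are means. For App, Thy1, Cst7, Trem2, Gfap and Lag3 both low-App libraries lie under every other-App library.

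Reads aligned numbered 27336813 and 18455493 in the low-App libraries, 23508967 to 34538031 in the other-App libraries and 28402328 to 77005806 in APPPS1. Replicate 5 thus had the lowest depth of the 7, and replicate 2 lay inside the range of the other 5. None of the 21 pairs among the 7 libraries was identical: they had correlations of 0.986 to 0.993 and median absolute log2 differences of 0.107 or more. By Xist and Y-linked reads both low-App libraries are female, as are 3 of the other 5, while replicates 1 and 3 are male. By mouse number in the titles, 390 and 391 are the low-App pair, 388 is replicate 1, and the rest run from 402 to 416.

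Promoters of 4 genes that separated the sides by a log2 difference over 1 are shown, and all 4 are known from microglia. Cst7 was taken for the largest difference. Clec7a, Ccl3 and Trem2 were taken as the next plaque-associated microglial genes by difference whose promoter holds the motif GAGGAA. PU.1, the transcription factor that maintains microglia, binds a core that reads GAGGAA on either strand (TTCCTC on the other), and the capitals mark it. The windows run from 250 bases before the start to 50 after it, 5′ to 3′ on the gene's strand, from RefSeq on build GRCm38.p6.
Cst7, chr2:150570165-150570464, plus strand: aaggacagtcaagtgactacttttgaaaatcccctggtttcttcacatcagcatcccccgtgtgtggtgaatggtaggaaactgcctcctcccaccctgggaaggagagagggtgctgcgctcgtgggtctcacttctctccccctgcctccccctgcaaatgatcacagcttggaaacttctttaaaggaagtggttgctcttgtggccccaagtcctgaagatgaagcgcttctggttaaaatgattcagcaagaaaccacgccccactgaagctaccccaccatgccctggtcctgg
Clec7a, chr6:129472730-129473029, minus strand: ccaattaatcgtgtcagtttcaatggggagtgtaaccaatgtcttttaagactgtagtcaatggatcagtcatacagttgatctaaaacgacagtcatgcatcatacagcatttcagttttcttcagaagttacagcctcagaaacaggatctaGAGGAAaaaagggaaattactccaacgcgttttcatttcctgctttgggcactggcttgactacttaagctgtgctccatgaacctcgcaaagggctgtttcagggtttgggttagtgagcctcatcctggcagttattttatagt
Ccl3, chr11:83649329-83649628, minus strand: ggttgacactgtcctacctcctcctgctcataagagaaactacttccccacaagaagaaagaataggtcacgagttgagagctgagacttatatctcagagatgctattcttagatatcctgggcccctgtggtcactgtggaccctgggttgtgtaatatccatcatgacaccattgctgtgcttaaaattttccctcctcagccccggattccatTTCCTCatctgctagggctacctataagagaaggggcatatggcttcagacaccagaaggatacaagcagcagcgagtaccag
Trem2, chr17:48346151-48346450, plus strand: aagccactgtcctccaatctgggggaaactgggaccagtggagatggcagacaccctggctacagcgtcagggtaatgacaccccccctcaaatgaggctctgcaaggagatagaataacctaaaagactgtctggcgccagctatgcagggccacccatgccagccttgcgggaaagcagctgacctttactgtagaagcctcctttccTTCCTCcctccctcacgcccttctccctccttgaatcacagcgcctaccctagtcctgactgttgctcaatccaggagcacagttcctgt
Clec7a, Ccl3 and Trem2, which were chosen for holding the motif, each have 1 match and Cst7 has none. Of the 31 genes counted below as higher in the other-App libraries, 21 had a promoter entry and 14 of these held GAGGAA on either strand, whereas 28.3% of all 27025 promoters of this length do. A match describes these letters alone.

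The sides were compared over the 13282 genes with a mean of 0.5 RPKM or more in the 7 libraries, as the difference of mean log2(RPKM + 0.5), other-App minus low-App, which understates gaps of weak genes. A gene was counted where the sides did not overlap and the difference was 1 or more. In the other-App libraries 31 genes were counted as higher, 0.233% of those compared, and 4 as lower, 0.0301%. Without a minimum size, 940 genes (7.08%) lay wholly above and 1311 (9.87%) wholly below the low-App libraries, and the median difference of all genes was -0.02. At a difference of 1.5 or more the counts were 10 above and 2 below. Large gaps therefore lay mostly on one side, although small ones did not. With replicate 2 left out the count was 49 above and 21 below, and with replicate 5 left out 56 above and 18 below. Either omission leaves 1 library on the low side, where lack of overlap is easier to meet, so the rise does not measure the influence of that library. Leaving out replicate 1 or 3 of the other-App side gave 8 and 7 below.

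**Figure D2:**
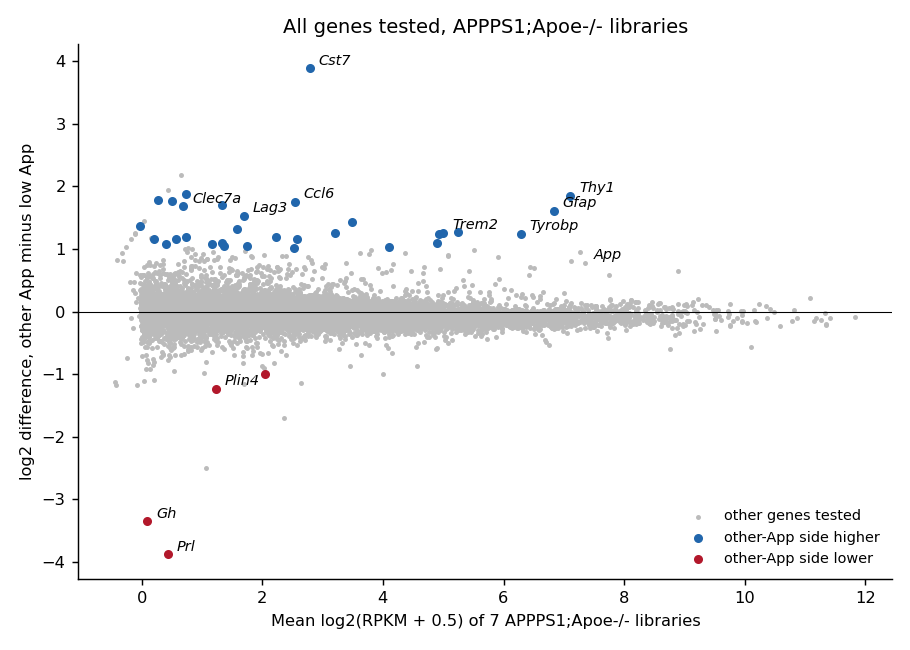
Each point is 1 of 13282 genes, with its mean log2(RPKM + 0.5) over the 7 APPPS1;Apoe-/- libraries across and its log2 difference, other-App minus low-App, upward. The 31 counted higher genes (blue) reach 3.89 for Cst7, and 4 genes (red) are counted lower, among them Prl and Gh.

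Cst7, the cysteine protease inhibitor cystatin F, had the largest difference of the genes counted as higher, 3.89 on the log2 scale. It is on chr2:150570415-150578944. It measured 0.490 and 0.518 RPKM in the low-App libraries, and 13.5, 18.2, 13.8, 17.2 and 10.5 RPKM in replicates 1, 3, 4, 6 and 7, a 29.1-fold gap. The low-App values amount to about 13.2 and 9.42 reads by GENCODE exon length, so the size of this gap rests on few reads. Every other-App library stood far above both low-App ones, and the 6 APPPS1 libraries stood higher still, from 32.6 RPKM through a median of 60.5 to 65.6 RPKM. Clec7a, the beta-glucan receptor dectin-1, on chr6:129461591-129472779, was at 0.149 and 0.256 RPKM in the low-App libraries, where it amounts to about 10.7 and 12.5 reads by GENCODE exon length, and at 1.55, 2.06, 2.18, 1.70 and 1.35 RPKM in the others (8.74-fold). In APPPS1 it spanned 6.43 to 8.61 RPKM. Itgax, the integrin subunit CD11c, fell short of the 0.5 RPKM minimum: it was 0.0348 and 0.0481 RPKM against 0.109 to 0.266 RPKM in the other 5, and 0.785 to 1.02 RPKM in APPPS1.

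The receptor Trem2 and its adaptor also separated the sides. Trem2, a lipid-sensing receptor, was 16 and 17.3 RPKM in the low-App libraries against 36.5, 40.1, 44.3, 43.3 and 38.4 RPKM, a 2.44-fold gap with no overlap. Tyrobp, its signalling adaptor, was 35.9 and 48.5 RPKM against 99.0, 107, 105, 91.8 and 94.4 RPKM. In APPPS1 the ranges were 71.4 to 82.3 RPKM for Trem2 and 174 to 222 RPKM for Tyrobp, so that the other-App libraries lay between. Of 14 chemokine and chemokine receptor genes compared, 7 lay above, 0 below and 7 overlapped, with a median of 0.59. Of all genes 7.08% lay above. The ligand Ccl3 was 0.0612 and 0.277 RPKM against 1.49 to 2.56 RPKM, and Ccl4 was 0.513 and 0.663 against 2.38 to 3.98 RPKM. In the low-App libraries these amount to about 1.28 and 3.92 reads for Ccl3, and 9.25 and 8.08 for Ccl4. Ccl6 was 1.85 and 2.03 against 6.83 to 9.53 RPKM. Ccl12 was also counted, at 1.26 and 3.27 RPKM against 3.98 to 8.03 RPKM. In APPPS1 the ranges of Ccl3, Ccl4 and Ccl6 were 5.32 to 11.6, 8.29 to 19.4 and 13.5 to 23.1 RPKM, above every other-App library. That of Ccl12 was 5.48 to 9.86 RPKM, which the other-App libraries overlapped.

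Among the other surface molecules and immune receptors counted, Lilrb4a, an inhibitory immunoglobulin-like receptor, was 0.129 and 0.0486 RPKM against 1.0 to 1.95 RPKM. Its near-identical copies could have shared reads, as could those of Bcl2a1b and Phf11b, so the 3 are uncertain. Cd52, a small glycosylated leukocyte antigen, was 4.23 and 5.95 RPKM against 12.2 to 17.1 RPKM. Cd48, Ly9 and Slamf9 are members of the SLAM receptor family, and were counted with log2 differences of 1.33, 1.16 and 1.06. Lag3, a checkpoint receptor that binds class II molecules, was 1.01 and 1.02 RPKM against 4.08, 3.23, 4.67, 3.78 and 3.80 RPKM. Unlike the genes above, it was higher in 4 of the 5 other-App libraries than in any APPPS1 library, the latter spanning 2.53 to 3.43 RPKM. Lyz2 (lysozyme), Cd68, Cd37, Gpr84, Myo1f, Samsn1, Ly86 and Aif1 were also counted, with differences between 1.03 for Aif1 and 1.27 for Lyz2.

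**Figure D3:**
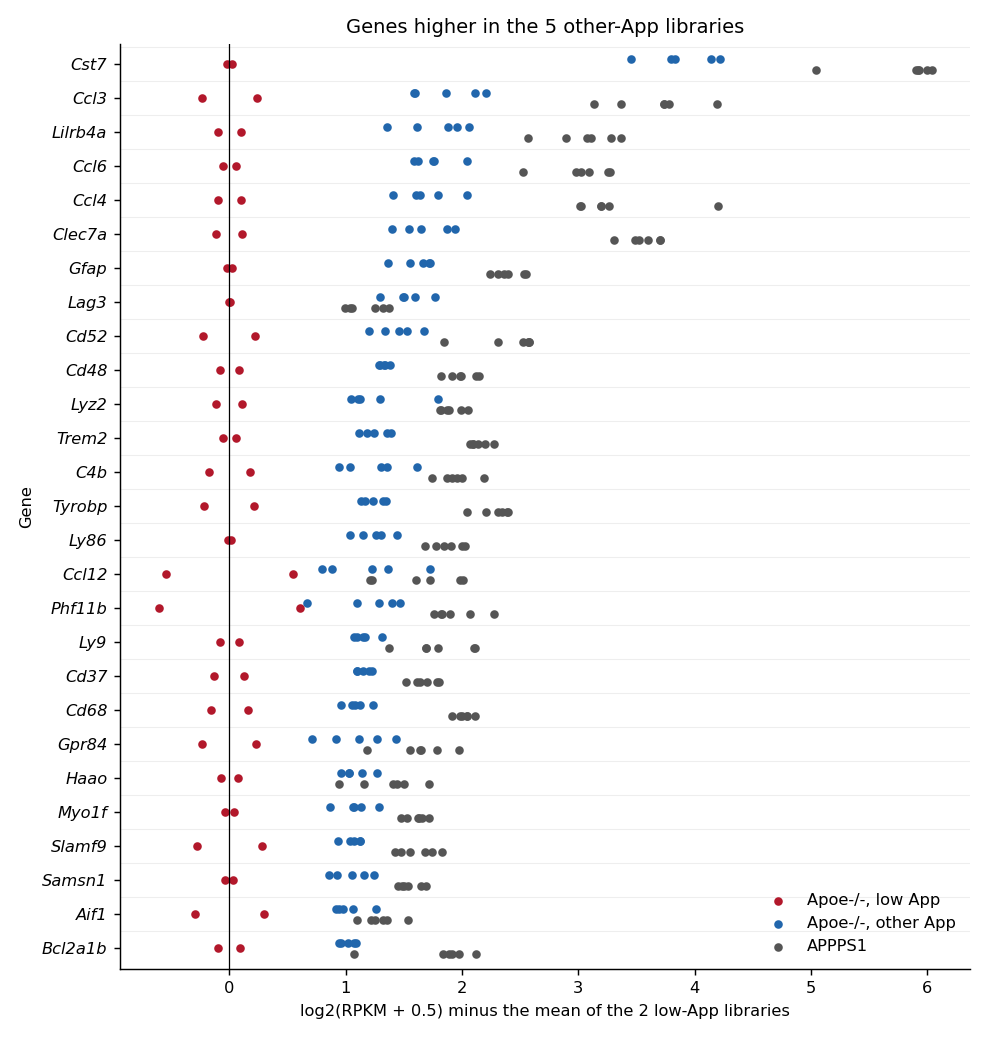
log2(RPKM + 0.5) of each library minus the mean of the 2 low-App libraries, for the counted higher genes other than Thy1, Med9os and 2 microRNA genes. Red is low-App, blue other-App and grey APPPS1; for Cst7, Clec7a, Ccl3, Trem2 and Gfap the blue points lie between red and grey, while for Lag3 4 of the 5 blue points lie above all grey ones.

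The 2 microRNA genes counted, Mir100 and Mir374b, are listed at 0 in both low-App libraries, and their largest other-App values amount to about 5 reads, so no fold is given. Med9os, annotated on the strand opposite Med9, was 0.274 and 0.414 RPKM against 0.741 to 2.12 RPKM, and whether the counting used strand is not given in the sources used here. Haao, an enzyme of tryptophan breakdown, was 0.316 and 0.238 RPKM against 1.01 to 1.38 RPKM.

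Astrocytic Gfap measured 51.7 and 50.1 RPKM in the low-App libraries and 132, 150, 170, 169 and 163 RPKM in the other-App libraries, a 3.08-fold gap, against 242 to 301 RPKM in APPPS1. It was the most abundant gene among those counted as higher apart from Thy1. C4b, the complement component that opsonises targets, was 5.10 and 3.89 RPKM against 9.02 to 14.6 RPKM. The reactive astrocyte list (29 members compared) had 12 above and 0 below, with a median difference of 0.23; Serpina3n, a secreted protease inhibitor, was at 10.2 and 10.2 RPKM against 10.6 to 14.4 RPKM, and Vim overlapped between the sides. Genes of astrocyte identity had 3 of 22 above, a median of 0.01, and Aldh1l1 at 30.9 and 28.3 RPKM against 24.5 to 32.2 RPKM. Beside both lists, 7.08% of all genes lay above.

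The 44 of 52 plaque-associated microglial genes that met the 0.5 RPKM minimum had 27 above, 0 below and 12 counted, with a median difference of 0.39; against the background of 7.08% above, 61.4% of the compared members lay above. The 8 that failed the minimum, among them Itgax and Cybb, were low in all 7 libraries, and a member passes more easily when its level is high on the larger side. The mean log2 value of the list was 3.41 and 3.49 in the low-App libraries, 4.08 to 4.17 in the other-App libraries and 4.60 to 4.82 in APPPS1. Not every member separated the sides. Igf1, Lpl and Ch25h, the last an enzyme that makes an oxysterol, differed by 0.09, 0.07 and -0.02. Spp1 (osteopontin) and Ctsb (cathepsin B) differed by -0.20 and 0.07. Naglu, of the lysosomal list and not of this one, differed by 0.09. Pan-microglial genes had 22 of 26 above (2 counted) with a median of 0.64, and homeostatic genes 16 of 26 with 0.47 and no gene counted. P2ry12, the microglial purinergic receptor, was 29.4 and 32.0 RPKM against 40.5 to 48.9 RPKM, while Tmem119 was 4.79 and 4.81 against 4.46 to 8.51 RPKM. In bulk tissue, fewer cells of a type and less RNA per cell cannot be told apart.

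**Figure D4:**
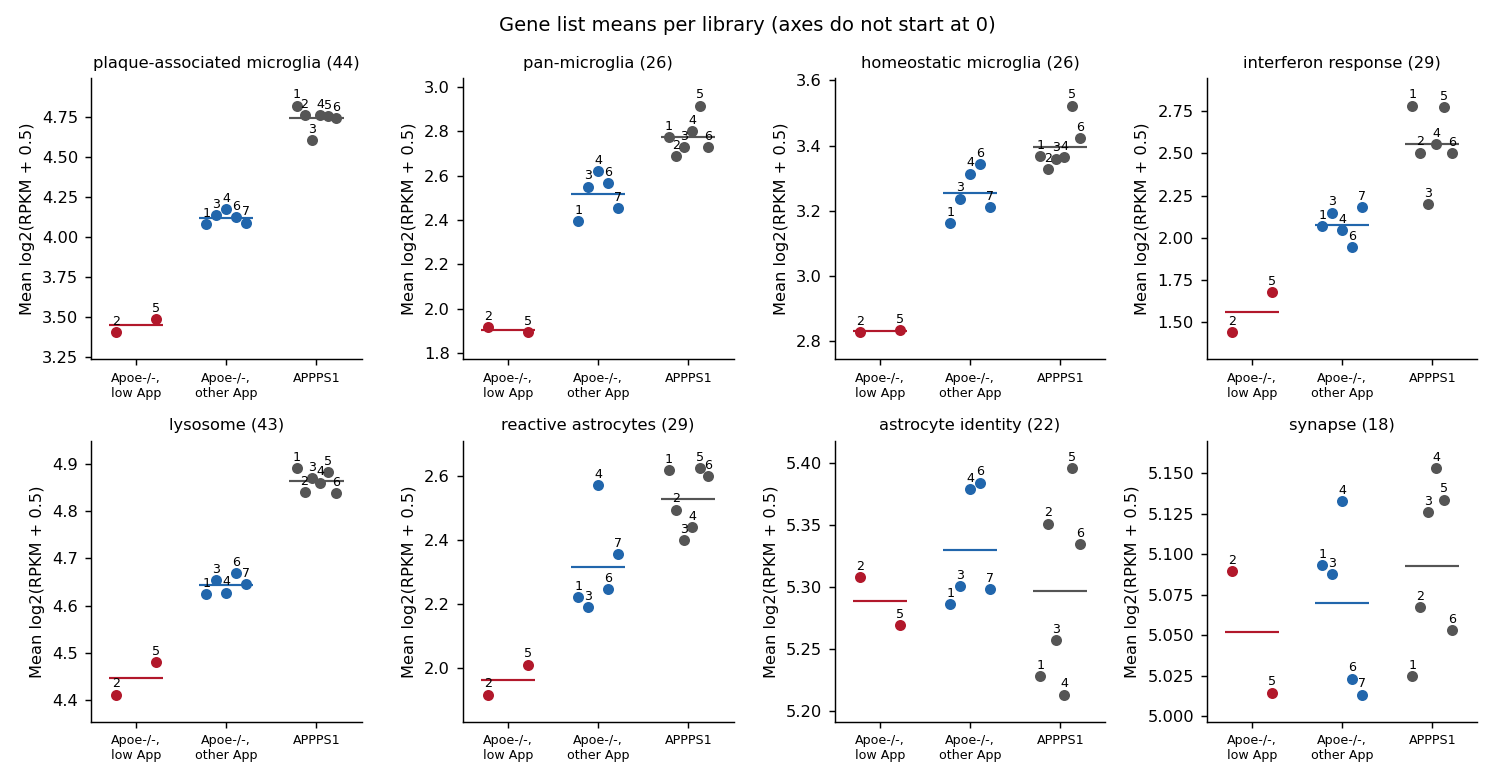
Mean log2(RPKM + 0.5) of 8 gene lists in each library, numbered by replicate, with the members compared in brackets and bars as means. The plaque-associated list stands at 3.41 and 3.49 in low-App, 4.08 to 4.17 in other-App and 4.60 to 4.82 in APPPS1, whereas the synapse list stays between 5.01 and 5.15.

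Of all genes 7.08% lay above and 9.87% below, and the counts of the following lists stand beside these shares. Fc and Toll-like receptors had 9 of 11 compared members above, and interferon-response genes 21 of 29 with a median of 0.58. Irf7, the interferon regulator, was 1.27 and 1.73 RPKM against 1.87 to 3.46 RPKM, and Oasl2 was 1.40 and 2.0 against 2.43 to 3.54 RPKM. Complement had 8 of 13 above, 1 below and 1 counted, with a median of 0.74. Lysosomal genes, which had 19 of 43 above, 2 below and 1 counted, had a median of 0.11; Ctsd (cathepsin D) was 331 and 354 RPKM against 490 to 595 RPKM. Class I antigen presentation had 4 of 17 above and class II 1 of 8, the latter with replicate 4 apart: Cd74, the invariant chain, was 83.3 RPKM there and 13.3 to 31.7 RPKM in the other 4 other-App libraries. Synapse (0 of 18) and inhibitory neuron genes (0 of 12) had no gene above or below, and cholesterol synthesis had 2 of 19 above.

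Members below the low-App libraries were found in several lists, beside 9.87% of all genes. Myelin genes had 0 above and 8 of 23 below, a median of -0.22, with Mbp at 515 and 591 RPKM against 373 to 503 RPKM. The striatal neuron list had 3 of 14 below, 11 overlapping and a median of -0.43, and its mean was 3.66 and 3.76 in the low-App libraries, 3.68 in replicate 1 and 2.98 to 3.37 in the other 4; against replicate 1 alone the median was 0.07. Compared with replicate 1 alone, all 35 genes counted in either direction kept their direction, which their lack of overlap had made certain. Of these, 29 were still counted, Cst7 with 3.80, Clec7a with 1.55, Trem2 with 1.11 and Gfap with 1.37. Among the female libraries alone 34 were still counted. Glucocorticoid-induced genes had 3 of 14 below, 11 overlapping and a median of -0.07, beside -0.02 over all genes. Among them Plin4, a lipid-droplet protein, was 4.91 and 2.97 RPKM against 0.825 to 2.14 RPKM (0.215 to 0.869 RPKM in APPPS1). The pituitary hormone genes Prl and Gh were 36.7 and 1.79, and 17.2 and 1.29 RPKM, against 0 to 0.627 and 0 to 0.310 RPKM. Replicate 2 carried most of both. In APPPS1 Prl spanned 0.0521 to 5.07 RPKM and Gh 0.0457 to 10.9 RPKM, ranges that include the values of low-App replicate 5. Tgoln2 was 6.16 and 6.36 RPKM against 4.89, 5.62, 0.325, 3.49 and 3.51 RPKM.

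Markers of other cell types that cortical tissue could hold were read in the same libraries. Of 10 choroid plexus genes 2 were compared, and Ttr, the transthyretin made there, reached 64.5 RPKM in replicate 5 and lay between 6.07 and 24.0 RPKM elsewhere among the 7. The leukocyte list had 3 of 14 genes compared, with a summed level of 9.40 and 8.51 RPKM in the low-App libraries and 5.58 to 11.7 RPKM in the others; the T cell genes Cd3d and Cd8a were listed at 0 in both low-App libraries and lay at 0.143 RPKM or less elsewhere among the 7. Perivascular macrophage genes summed to 5.48 and 9.33 RPKM against 6.18 to 8.89 RPKM, with 1 of 5 above, beside 7.08% of all genes. Erythroid genes had 4 of 6 above and summed to 16.6 and 13.6 RPKM against 20.3 to 29.6 RPKM, and to between 5.63 and 481 RPKM in APPPS1. The part of these, of the striatal level and of pituitary genes in the microglial and astrocytic differences was not tested.

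**Figure D5:**
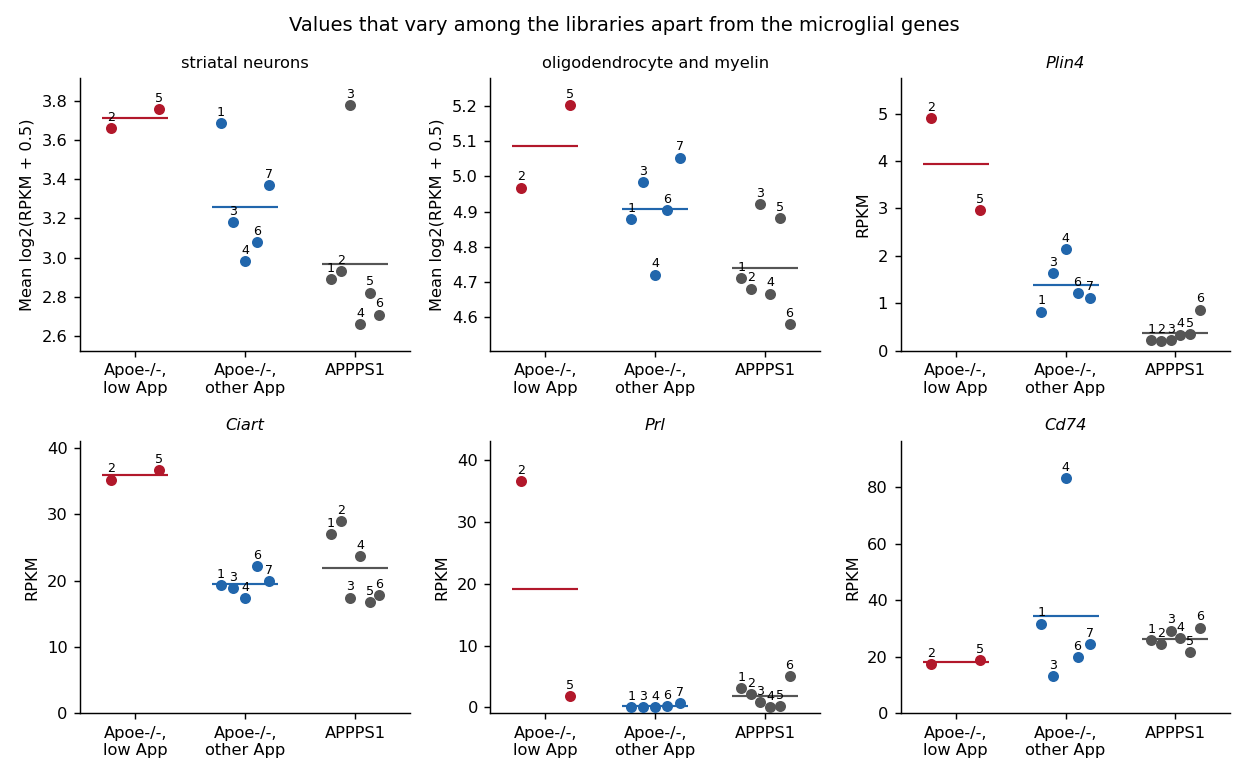
Striatal and myelin list means (log2) and RPKM of Plin4, Ciart, Prl and Cd74 in each library, numbered by replicate. Replicate 1 has a striatal mean of 3.68, level with the low-App pair, and Cd74 is highest in replicate 4, at 83.3 RPKM.

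The second comparison asked how the 5 other-App libraries differed from the 6 APPPS1 libraries, which have similar App, by limma with Benjamini-Hochberg adjustment over 13365 genes. It called 442 genes lower in APPPS1;Apoe-/- (3.31%) and 236 higher (1.77%). Mouse numbers in the titles run from 22 to 70 in APPPS1 and from 388 to 416 in the other-App libraries. Genotype and number range therefore cannot be told apart. By Xist and Y-linked reads 5 of the 6 APPPS1 libraries are female, against 3 of the 5 other-App libraries. The comparisons share the 5 other-App libraries, so their values stand side by side without a joint test. Of the plaque-associated list 38 of 50 members were called lower and 0 higher by limma; at an unadjusted p under 0.05 these counts were 43 and 0. Cst7 differed by -1.92 ± 0.17 (SE) on the log2 scale by limma (adjusted p = 1.56e-05), with no overlap with APPPS1. Clec7a differed by -1.87 ± 0.10 by limma (adjusted p = 8.79e-08). Trem2 differed by -0.89 ± 0.06 by limma (adjusted p = 6.60e-07) and Gfap by -0.79 ± 0.07 (adjusted p = 2.33e-05). Igf1 differed by -0.51 ± 0.07 and the lysosomal gene Naglu by -0.56 ± 0.07. Both were called, although the low-App and other-App libraries had close values for them. Aif1, Ccl12 and Haao were counted between the sides and missed the limma threshold (adjusted p = 0.0719, 0.190 and 0.207). So did the counted genes Med9os, Mir100, Mir374b, Prl, Gh and Tgoln2 (limma adjusted p = 0.0846, 0.234, 0.126, 0.122, 0.117 and 0.389). Lag3 was called higher in APPPS1;Apoe-/-, by 0.36 ± 0.09 by limma (adjusted p = 0.0381); with all 7 knockout libraries it was -0.08 and not called. Lag3 lost its call in 12 of 20 alternative settings: besides all 7 libraries these were no filter on low values (limma adjusted p = 0.0914), female libraries only (0.0853), the depth covariate (0.177) and leaving out any of 8 single libraries (0.0543 to 0.0859). P2ry12 missed the threshold by limma (adjusted p = 0.207), at -0.14. Spp1 and Ctsb differed by 0.14 and -0.16 and were not called by limma (adjusted p = 0.709 and 0.113).

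Across the lists, limma called 10 of 26 pan-microglial and 8 of 26 homeostatic genes lower in APPPS1;Apoe-/-, with medians of -0.23 and -0.17 beside -0.01 over all genes. Of all genes it called 3.31% lower and 1.77% higher. Crybb1, a crystallin gene expressed by microglia, was the 1 homeostatic gene called higher (0.70 ± 0.15, limma adjusted p = 0.0152); it was 4.98 and 4.54 RPKM in the low-App libraries, 3.34 to 5.87 RPKM in the other-App libraries and 1.84 to 3.87 RPKM in APPPS1. Interferon-response genes had 17 of 29 called lower (median -0.52), lysosomal genes 17 of 43 (-0.17) and reactive astrocyte genes 10 of 29, with 1 higher (-0.27). Among chemokines and their receptors 4 of 13 were called lower. Myelin genes had 0 called lower and 2 of 23 higher by limma (0 and 8 at an unadjusted p under 0.05). Striatal genes had 0 of 14 called in either direction by limma, with 0 lower and 4 higher at an unadjusted p under 0.05, and synapse genes 0 of 18, with 2 lower and 1 higher. Glucocorticoid-induced genes had 7 of 13 called higher and 0 lower by limma, a median of 0.47; at an unadjusted p under 0.05 the counts were 8 and 0. Plin4 was higher by 1.11 ± 0.19 by limma (adjusted p = 0.00374) and Tsc22d3, a glucocorticoid-induced leucine zipper gene, by 1.07 ± 0.13 (adjusted p = 2.58e-04). Tsc22d3 measured 125 and 133 RPKM in the low-App libraries, 82.2 to 116 RPKM in the other-App libraries and 37.3 to 62.7 RPKM in APPPS1, so that for these 2 genes the low-App libraries stood farthest from APPPS1. The counts depend on single libraries and on the fit: without replicate 3 of APPPS1;Apoe-/- limma called 294 lower and 150 higher, and without replicate 1 or 6 it called 150 and 148 higher. With female libraries only the counts were 162 lower and 60 higher, and with the number of alignments as a covariate 199 and 84.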

How the data were processed

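Per the labels' protocols, cortex was flash frozen, RNA was taken with Trizol and a Clontech SMARTer kit served for the libraries. The authors deposited RPKM per gene for all 13 libraries in 1 table of 20971 genes, with a count of alignments per library. Partek and mm10 are named in the submitters' processing notes; for the aligner, the counting rule, strand use and the annotation nothing is given in the sources used here. In RPKM, a few abundant genes can lower the rest, and the read error of weak genes is not stated. The genotype in the table matched the label in 13 of 13 libraries.

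Values were taken as log2(RPKM + 0.5), keeping genes with a mean of 0.5 RPKM or more (13282 between the App sides, 13365 between genotypes). The App sides, cut at 150 RPKM, were described without a test. Genotypes (6 APPPS1 against the 5 other-App libraries) were compared by limma 3.58.1 under R 4.3.3 (trend, two-sided, Benjamini-Hochberg, adjusted p under 0.05), without App and Thy1. The code was tested on simulated data of the genotype comparison with 200 changed genes. It recovered 84%, 94% and 100% of those changed by 0.5, 1 and 2 on the log2 scale. Libraries were compared as separate mice, and the labels do not tie replicate numbers together. The limma p-values set the difference between genotypes against the spread among libraries within the groups. Members and the 32 gene lists (556 genes measured, 32 in several lists) were chosen with earlier results of these data known. Named genes are a fixed set, the 12 per direction with the largest difference among counted genes, leaving out unnamed models, and up to 4 counted genes per list, 53 together. Some genes are not reported here. The other counted genes and the other list members named were chosen after their values were seen. Positions are from GENCODE mouse release 21, where Tgoln2 was not found by name. Other pseudocounts (0.1 and 1), filters, scaling, female libraries, restriction to replicate 1, size limits, a depth covariate, no trend and leaving out each library were tried. Figures used matplotlib 3.10.9 in Python 3.11.15 with pandas 2.3.3 and numpy 2.4.6.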

Additional observations from a re-analysis of the deposited data

Results flagged for a closer look

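In groups of 4 to 10 libraries, 16 of 213 checks found a library whose gap to its nearest neighbour was large beside the whole range by Dixon's criterion; chance gives about 1 in 20. Replicate 4 of APPPS1;Apoe-/- stood apart most often. Its C3, at 0.384 RPKM, and its Cd74, at 83.3 RPKM, were highest both among the 5 other-App libraries and among all 7. Its mean log2 of class II antigen presentation genes (3.07) was highest of the 7. Among the other-App libraries its cholesterol synthesis mean (4.15) was lowest, and its endothelial (2.99) and glucocorticoid-induced (3.61) means were highest. Replicate 1 of APPPS1;Apoe-/- had the highest Lpl of the 7, 6.00 RPKM, and the lowest Csf1r of the other-App libraries, 23.2 RPKM. In APPPS1, replicate 3 had the lowest Cst7 (32.6 RPKM) and the lowest plaque-associated mean (4.60), with the highest Drd1 (17.7 RPKM) and striatal mean (3.78). Replicate 2 of APPPS1 had the highest Ccl4, 19.4 RPKM, and replicate 1 the lowest C3, 0.0756 RPKM.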

How the results depend on the processing

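Between the App sides, all 35 counted genes kept their direction in each of the 12 settings in which they were compared. Their choice by lack of overlap fixed this in every setting but the scaling. In these settings 23 to 35 were still counted, the lowest number with a pseudocount of 1. The counts above and below were 66 and 9 with a pseudocount of 0.1, and 20 above with a pseudocount of 1. Without a filter on low values 9 lay below, as with female libraries only. Against replicate 1 alone 28 did, where 1 library on the other-App side makes lack of overlap easier to meet. A smaller minimum, 1.5-fold, gave 146 and 33, and no overlap alone 940 and 1311. Leaving out each library gave 31 to 56 above and 4 to 21 below, and a plaque-associated median of 0.37 to 0.43. The highest counts came where 1 library was left on the low side, which makes lack of overlap easier to meet. The striatal median turned to 0.066 against replicate 1 alone. Between genotypes, limma called 162 lower and 60 higher with female libraries only, 465 higher with all 7 knockout libraries, and 199 and 84 with alignments as a covariate. Leaving out each library gave 294 to 492 lower and 148 to 279 higher. Tmem119 turned to -0.076 with all 7 and -0.12 with the covariate, Cd74 to -0.083 and Lag3 to -0.077 with all 7; leaving out each library gave -0.063 to 0.15 for Tmem119 and -0.30 to 0.36 for Cd74. The cause was not tested. No paired analysis was possible because replicate numbers were given in accession order and pair no samples. Depth limits weak genes most, above all in replicate 5, and the spread of the low-App side rests on 2 libraries.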

Other observations

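The values of 5 clock genes and of Tekt4 follow, chosen after they were seen; none was counted between the sides, and 9.87% of all genes lay wholly below the low-App libraries. Ciart, a repressor of the circadian clock, was 35.3 and 36.7 RPKM in the low-App libraries and 17.4 to 22.2 RPKM in the other-App libraries, with 16.7 to 29.0 RPKM in APPPS1. Dbp, a clock output gene, was 5.07 and 6.24 RPKM against 2.24 to 3.45 RPKM, and Nr1d1 was 67.3 and 62.7 against 39.8 to 52.6 RPKM. Per3 was 9.83 and 8.78 RPKM against 7.12 to 8.31 RPKM. Arntl, whose product drives these genes, was 6.20 and 5.17 RPKM against 6.18 to 8.25 RPKM, and its ranges overlapped. The time of day at which tissue was taken is not in the labels, and its part was not tested. Tekt4, a gene of motile cilia, was 1.93 and 1.71 RPKM in the low-App libraries, 0.597 to 1.04 RPKM in the other-App libraries and 0.0655 to 0.539 RPKM in APPPS1.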
